A study of Mus musculus with 2 samples.

Results

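The CCAAT/enhancer-binding proteins (C/EBPs) and their dimer partners were followed in cultured mouse keratinocytes with and without a deletion of Pp6. They were 9 genes of the 47719 in the table, taken by symbol: Cebpa, Cebpb, Cebpd, Cebpg, Cebpz, Ddit3, Atf4, Batf and Batf3. Of these, 7 were expressed, here meaning at least 1 CPM (reads scaled to the size of the library) in a library, and Batf and Batf3 were not. The tested library came from K5.Pp6fl/fl cells, the conditional knockout, and the control library from Pp6fl/fl cells, which carry the same floxed allele without the K5 transgene. Pp6, listed as Ppp6c, encodes the catalytic subunit of protein phosphatase 6, and K5 is read here as the keratin 5 promoter, active in basal keratinocytes. The labels do not spell this out or name the recombinase, and cells in which it was not active would keep the gene. Both cultures were made from tail skin of C57BL/6J mice of 8 weeks and kept for 3 days in Medium 154CF. There was 1 library per genotype, and the labels do not say how many mice gave each, so no difference has a replicate check and no p-value is given.

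C/EBP proteins are basic leucine zipper (bZIP) transcription factors that bind DNA as pairs. C/EBP alpha and C/EBP beta push epidermal cells from proliferation towards differentiation, and C/EBP beta and C/EBP delta also drive acute-phase and inflammatory genes, Arg1 among their targets in macrophages. C/EBP gamma lacks a classical activation domain and acts largely through the partner it pairs with. CHOP, the product of Ddit3, binds DNA mainly as a heterodimer, and both can pair with ATF4, the effector of the integrated stress response. Translation of ATF4, CHOP and the C/EBP alpha and beta isoforms is controlled by upstream reading frames or alternative start codons, so a transcript level does not report the amount of protein, which was not measured. Cebpz is the exception in structure: it carries the family symbol but no leucine zipper, and its yeast relative works in ribosome assembly in the nucleolus.

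The CCAAT box gave the family its name, and it is shown here for the members whose promoter in RefSeq (GRCm38.p6) held it. The RefSeq table had a promoter for Cebpa, Cebpb, Cebpg, Ddit3, Atf4, Batf and Batf3, from 250 bases before to 50 bases after the transcription start, and not for Cebpd and Cebpz. The motif CCAAT or its reverse complement ATTGG was present in 3 of these 7 genes, against 41.1% of the 27025 genes with a promoter in the table. The 120 bases before the start are printed 5′ to 3′ on the strand of the gene, with the motif in capitals.
Atf4, chr15:80255064-80255183, plus strand: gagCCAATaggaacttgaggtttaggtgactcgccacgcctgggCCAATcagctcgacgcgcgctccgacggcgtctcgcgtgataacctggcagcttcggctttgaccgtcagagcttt
Cebpg, chr7:35056567-35056686, minus strand: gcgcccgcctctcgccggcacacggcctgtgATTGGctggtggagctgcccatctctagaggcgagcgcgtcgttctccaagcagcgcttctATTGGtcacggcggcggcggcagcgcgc
Ddit3, chr10:127290673-127290792, plus strand: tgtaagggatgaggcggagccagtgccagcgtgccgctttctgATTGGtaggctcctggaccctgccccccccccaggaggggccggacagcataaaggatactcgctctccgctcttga
None of the 7 promoters held the C/EBP motif TTGCNNAA, the composite C/EBP-ATF motif TGATGNAA or the CRE motif TGACGTCA on either strand. These matches describe letters in a window and say nothing about binding.

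The libraries held 17361259 reads in genes for K5.Pp6fl/fl and 19374767 for Pp6fl/fl. Ppp6c itself stood at 40.7 CPM in the library labelled K5.Pp6fl/fl and at 55.5 CPM in Pp6fl/fl, a fold of 0.733 (95% interval 0.665 to 0.806). By the deposited level per length (FPKM) it stood at 16.8 in K5.Pp6fl/fl and 30.6 in Pp6fl/fl. That is a larger drop, so its size depends on the measure. The table gives no values per exon that would separate the deleted part. The cells carried keratinocyte transcripts: the 3 most abundant of the 6 basal markers, Krt14, Krt5 and Col17a1, had 28559, 17100 and 3608 CPM in K5.Pp6fl/fl and 30702, 17801 and 3987 CPM in Pp6fl/fl. Of 9 Langerhans and myeloid markers 8 had no read in either library. The exception was Csf1r, with 1 read in each. In bulk RNA fewer cells of a type and less RNA per cell cannot be told apart.

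None of the family members differed by 2-fold between the genotypes. Their log2 ratios, K5.Pp6fl/fl over Pp6fl/fl after adding 0.5 CPM, ran from -0.14 for Ddit3 to 0.19 for Cebpd, with a median of -0.07 over the 7 expressed members, against a median of -0.01 over 12325 expressed genes. The 2-fold rule asked for a log2 ratio of at least 1 in size, in either direction, and 1 CPM or more in the higher library. It also asked for a fold whose counting interval excluded 1. Genes that met the rule are named as called. By this rule 0 of the 7 were called, against 1.01% of all expressed genes. Among genes at 20 CPM or more, where all 7 lay, the share called was 0.173%. By a 1.5-fold rule again 0 of the 7 were called, against 4.73% of all expressed genes. The counting interval alone, which is narrower for abundant genes, excluded 1 for 3 of the 7, against 34.0% of expressed genes and 41.9% of genes at 20 CPM or more. All intervals are at 95% and cover counting error only, so they hold none of the variation between cultures.

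Among the classical activators, Cebpa and Cebpd were slightly higher and Cebpb was not distinguishable from equal at this depth. Cebpa had 1575 reads in K5.Pp6fl/fl (exact Poisson interval 1498 to 1655) and 1613 in Pp6fl/fl (1535 to 1694), which is 90.6 and 83.4 CPM. The fold was 1.09 (1.01 to 1.17), so the lower bound lay just above equality. Cebpd, an early gene of the acute-phase response, had 851 reads in K5.Pp6fl/fl and 829 in Pp6fl/fl, or 49.0 and 42.8 CPM. Its fold of 1.14 (1.04 to 1.26) was the largest fold of the family, and 66.5% of expressed genes had a log2 ratio closer to 0. Cebpb had 1135 reads in K5.Pp6fl/fl and 1348 in Pp6fl/fl, or 65.3 and 69.7 CPM, a fold of 0.937 (0.865 to 1.01).

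Cebpb and Cebpd each share over 10% of their exon bases with a gene on the opposite strand, and the library kit does not mark strand. In the GRCm38 annotation, Tmem189 shares 312 exon bases with Cebpb and Spidr shares 562 with Cebpd. Both neighbours had folds near 1, with 931 reads in K5.Pp6fl/fl and 1036 in Pp6fl/fl for Tmem189, and 606 and 681 for Spidr. The sum of Cebpd and Spidr had a fold of 1.07 with an interval from 0.999 to 1.15, which no longer excluded 1. The sum of Cebpb and Tmem189 had a fold of 0.965 (0.909 to 1.02). Smaller overlaps were not summed: Ddit3 shares 68 exon bases with Mars, which had 4391 reads in K5.Pp6fl/fl and 4797 in Pp6fl/fl, and Cebpz shares 171 with Cebpzos, which had 211 and 237.

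Atf4 was by far the most abundant member and the closest to equal. It had 11577 reads in K5.Pp6fl/fl and 12916 in Pp6fl/fl, or 666 and 668 CPM, a fold of 0.998 (0.973 to 1.02). Its interval was the narrowest of the family. Cebpg, the dimer partner without a classical activation domain, had 2135 reads in K5.Pp6fl/fl and 2493 in Pp6fl/fl, or 123 and 129 CPM, a fold of 0.953 (0.899 to 1.01).

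Ddit3 and Cebpz were the members with the lowest folds. Ddit3, which is induced when ATF4 accumulates under stress, had 461 reads in K5.Pp6fl/fl and 567 in Pp6fl/fl, or 26.5 and 29.3 CPM. The fold was 0.905 (0.799 to 1.03), an interval that included 1. Cebpz had 1841 reads in K5.Pp6fl/fl and 2228 in Pp6fl/fl, or 106 and 115 CPM, a fold of 0.920 (0.864 to 0.979), and it was the only member whose interval lay below 1.

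The immune-cell members were at or near 0. BATF and BATF3 are short bZIP factors of lymphoid and dendritic cells that pair with JUN proteins. Batf had 0 reads in both libraries, which allows up to 3 reads, or 0.173 CPM in K5.Pp6fl/fl and 0.155 CPM in Pp6fl/fl. Batf3 had 1 read in K5.Pp6fl/fl and 0 in Pp6fl/fl, too few for a fold. The markers of the cells that express them were near 0 as well: the 7 T cell markers summed to 5 reads in K5.Pp6fl/fl and 4 in Pp6fl/fl, with no read for Cd3e, Cd3d or Cd3g, and the 9 Langerhans and myeloid markers summed to 1 read in each.

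**Figure D1:**
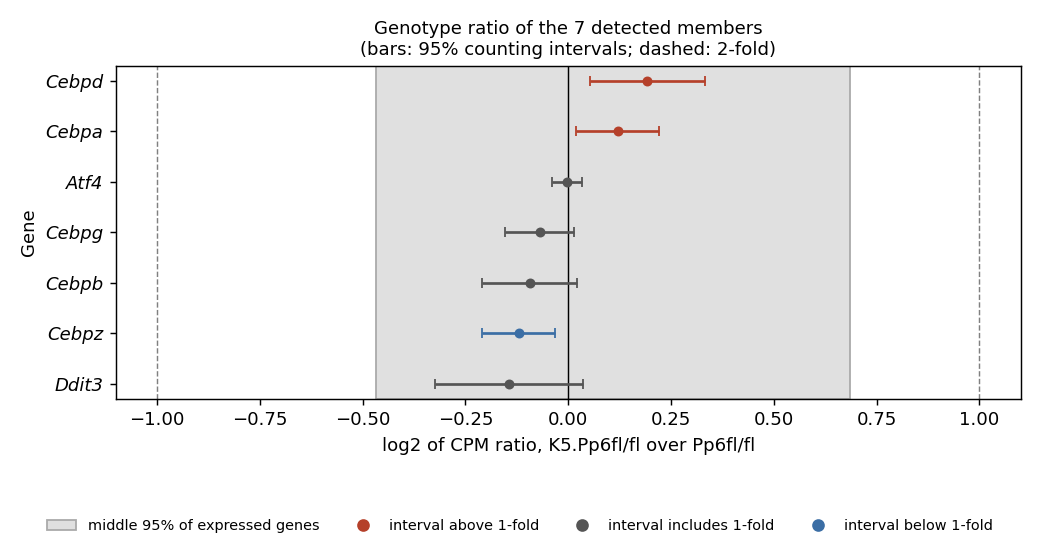
Genotype ratio of the 7 expressed members. The horizontal axis is the log2 of the CPM ratio, K5.Pp6fl/fl over Pp6fl/fl, points are 1 library against 1, bars are 95% counting intervals, and the grey band is the middle 95% of expressed genes (from -0.47 to 0.69 after adding 0.5 CPM). Cebpd and Cebpa lie above 0 and Cebpz below with their whole intervals, and every member lies within the band.

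Levels of different genes can be compared only per length, for which the deposited FPKM (fragments per kilobase, scaled to library size) were used. Atf4 stood at 470 FPKM in both libraries, rank 215 of all genes in K5.Pp6fl/fl and 214 in Pp6fl/fl, and made up 63.2% of the summed FPKM of the 9 genes in K5.Pp6fl/fl and 62.9% in Pp6fl/fl. A group of similar level followed: in K5.Pp6fl/fl Cebpd (56.0 FPKM), Cebpb (54.6), Cebpg (48.2) and Ddit3 (47.3), then Cebpa (39.3) and Cebpz (28.2). In Pp6fl/fl the order was Cebpb (58.0), Ddit3 (52.5), Cebpg (51.6), Cebpd (48.9), Cebpa (35.9) and Cebpz (30.5). Counting intervals of neighbours overlapped between Cebpd and Cebpb and between Cebpg and Ddit3 in K5.Pp6fl/fl, and from Cebpb through Ddit3 and Cebpg to Cebpd in Pp6fl/fl, so the order of those neighbours is not resolved. In K5.Pp6fl/fl Cebpb did not overlap Cebpg. The place of Cebpd rests on the length used: by reads per kilobase of its longest annotated transcript it held 2.61% of the family sum in K5.Pp6fl/fl and 2.26% in Pp6fl/fl, against 7.53% and 6.54% by FPKM. The ratio of Cebpa to Cebpb in FPKM was 0.720 in K5.Pp6fl/fl and 0.619 in Pp6fl/fl, and that of Ddit3 to Atf4 was 0.1 and 0.112.

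**Figure D2:**
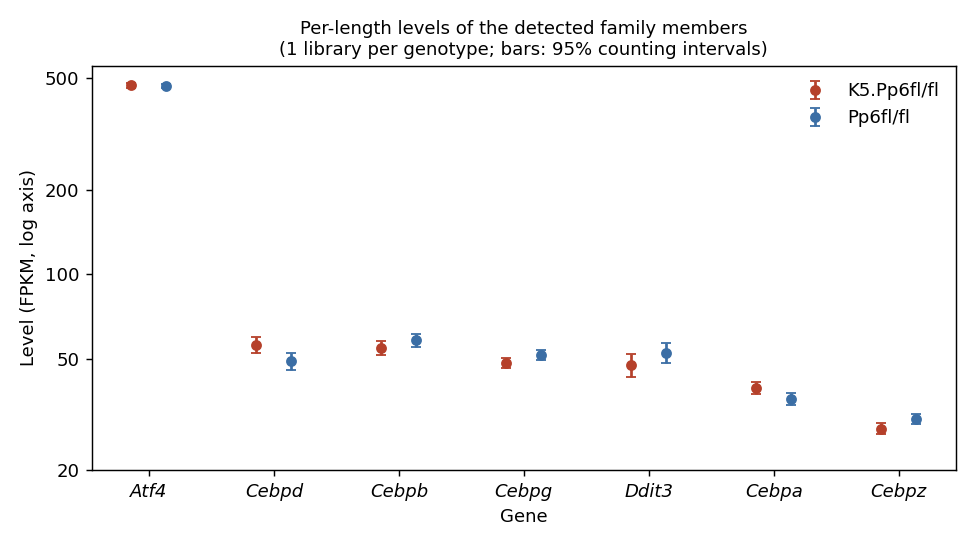
Per-length levels of the 7 expressed members. The vertical axis is FPKM on a log scale, with K5.Pp6fl/fl left of Pp6fl/fl for each gene, 1 library per genotype, and bars for the 95% counting interval. Atf4 stands at 470 FPKM in both libraries, and the other members lie between 28.2 and 58.0 FPKM.

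The authors' deposited table gave the same picture of small differences. Its log2 fold changes for the 7 expressed members ran from -0.15 for Ddit3 to 0.2 for Cebpd. The lowest FDR among the members in the authors' deposited table was 0.0999, for Cebpd, and 3.73% of all genes in it had an FDR of at most 0.05. That share is over all 47719 genes, of which 28125 had no read in either library. With no replicates, the FDR values depend on an assumed dispersion whose value the labels and headers leave unstated.

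The rest of the bZIP class was then listed as a setting for the family. Of 44 other bZIP genes 38 were expressed, 0 were called, and the median log2 ratio was 0.00, with 9 intervals above 1 and 9 below. Cebpe, the granulocyte member of the family, had no read in either library. The 2 most abundant were Jun, of AP-1, at 376 CPM in K5.Pp6fl/fl and 440 in Pp6fl/fl (0.856-fold, 0.828 to 0.884), and Nfe2l1, a regulator of proteasome genes, at 451 and 365 CPM (1.24-fold, 1.20 to 1.28). They lay on opposite sides of 1. By the log2 ratio after adding 0.5 CPM, the ends of the range, named after their values were seen, were Hlf, a circadian PAR bZIP factor, at 0.634-fold (0.531 to 0.754) and the immediate early gene Fos at 1.64-fold (1.28 to 2.11). Of 7 BATF partners 4 were expressed, with a median of -0.12 and 0 called. Junb, which can pair with BATF, was at 1.17-fold (1.13 to 1.22). Irf4 had no read, and Irf8 had 2 reads in K5.Pp6fl/fl and 6 in Pp6fl/fl.

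**Figure D3:**
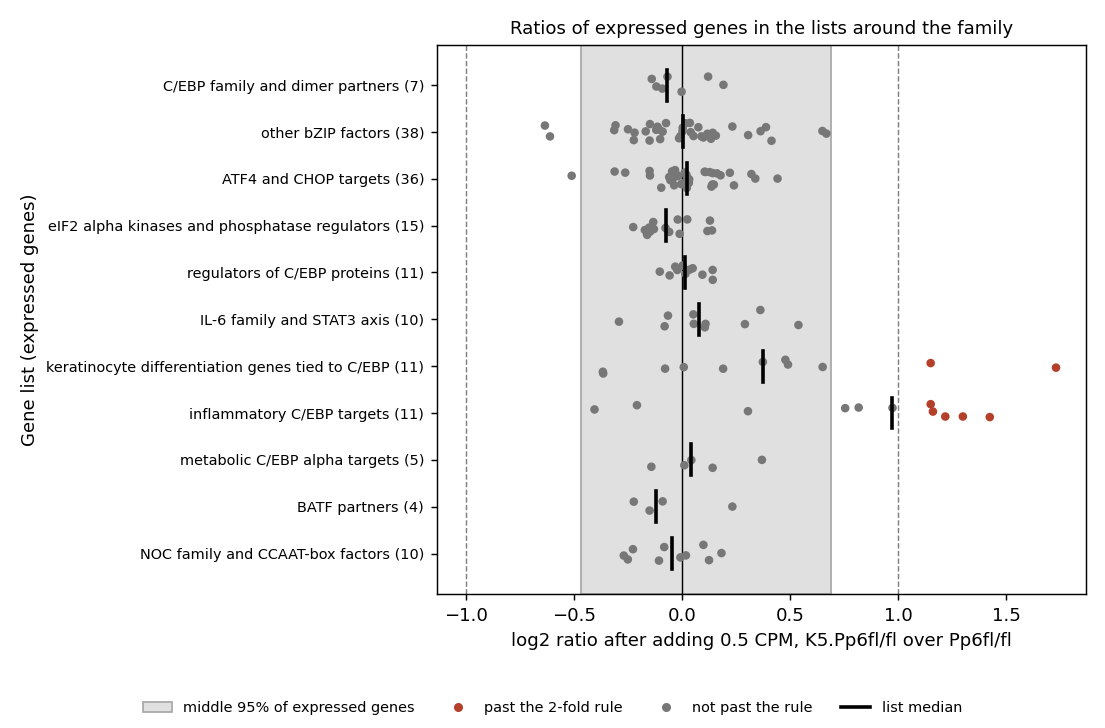
Log2 ratios of expressed genes in 11 gene lists, the family at the top. The horizontal axis is the log2 ratio after adding 0.5 CPM, K5.Pp6fl/fl over Pp6fl/fl, each point is a gene, black bars are list medians, dashed lines mark 2-fold and the grey band is the middle 95% of expressed genes. The 7 called genes lie in the keratinocyte differentiation and inflammatory target lists.

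Genes that ATF4 and CHOP switch on were also close to equal. All 36 listed targets were expressed, 0 were called, and the median log2 ratio was 0.02, with 14 intervals above 1, 2 below and 20 including 1. Over all expressed genes 16.6% had an interval above 1 and 17.4% below. Among genes at 20 CPM or more, where intervals are narrower, 41.9% had an interval that excluded 1 in either direction. More targets thus lay above 1 than below, unlike expressed genes as a whole. The 2 most abundant targets, the tRNA synthetase genes Nars and Aars, were at 1.01-fold (0.982 to 1.03) and 0.978-fold (0.953 to 1.0). Asparagine synthetase, Asns, a standard reporter of ATF4 activity, had 6476 reads in K5.Pp6fl/fl and 7114 in Pp6fl/fl, a fold of 1.01 (0.980 to 1.05). The genes with intervals above 1 were small in fold: the glutathione-degrading enzyme Chac1 was at 1.17-fold (1.08 to 1.26), the cystine transporter Slc7a11 at 1.25-fold (1.09 to 1.44), and the hormone Stc2 highest at 1.37-fold (1.16 to 1.61). Asns, Chac1, Slc7a11 and Stc2 were named after their values were seen.

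The composite C/EBP-ATF motif, TGATGNAA or TTNCATCA, is the site at which ATF4 pairs with a C/EBP protein. It was present in 9 of the 28 targets with a RefSeq promoter, against 4.51% of all genes with one, and it overlapped neither the C/EBP motif nor the CRE in any of the 184 promoters of the listed genes. The list was drawn from known targets, so this share is no independent evidence. Stretches of 60 bases (GRCm38.p6, 5′ to 3′ on the strand of the gene) are shown for 4 targets that differ in fold, with the motif in capitals.
Asns, chr6:7693210-7693269, minus strand: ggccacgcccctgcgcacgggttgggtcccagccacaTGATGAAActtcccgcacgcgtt
Chac1, chr2:119351023-119351082, plus strand: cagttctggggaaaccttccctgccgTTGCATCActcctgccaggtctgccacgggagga
Slc7a11, chr3:50443646-50443705, minus strand: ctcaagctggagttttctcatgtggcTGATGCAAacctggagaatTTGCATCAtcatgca
Atf3, chr1:191183410-191183469, minus strand: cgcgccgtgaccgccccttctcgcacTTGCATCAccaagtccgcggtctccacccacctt
The motif began 23 bases before the start in Asns, 193 in Chac1, 110 in Atf3, and 66 and 47 in Slc7a11. Atf3, itself a bZIP repressor, had 913 reads in K5.Pp6fl/fl and 921 in Pp6fl/fl, a fold of 1.10 (1.01 to 1.21).

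**Figure D4:**
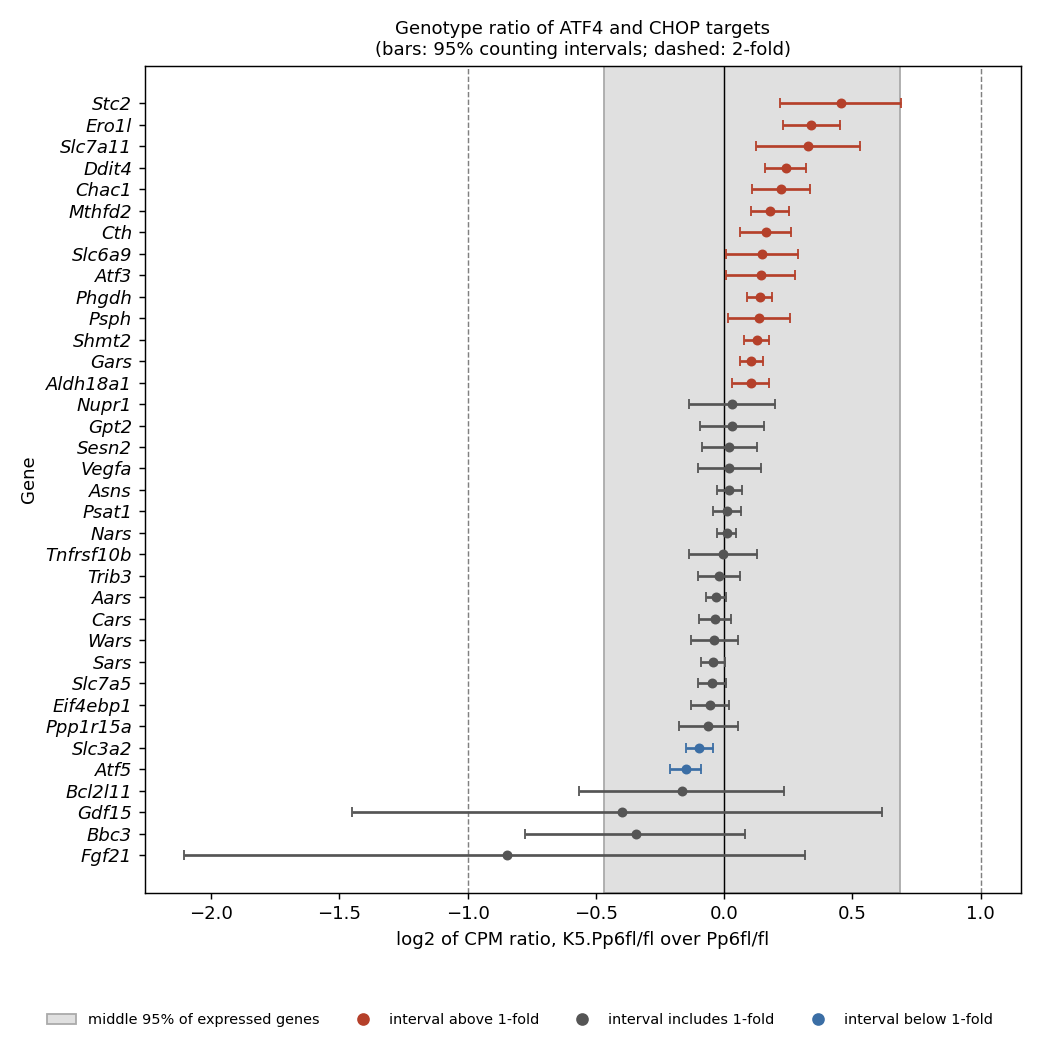
Genotype ratio of the 36 ATF4 and CHOP targets. The horizontal axis is the log2 of the CPM ratio, K5.Pp6fl/fl over Pp6fl/fl, with 95% counting intervals, dashed lines at 2-fold and a grey band for the middle 95% of expressed genes. Stc2 is highest at 1.37-fold, Asns sits at 1.01-fold, and the widest intervals belong to the low genes Fgf21 and Gdf15.

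Upstream of the family, no gene was called either. The 15 genes listed around eIF2 alpha phosphorylation, which controls ATF4 translation, included the eIF2B subunit genes Eif2b1 to Eif2b5. The median over the 15 was -0.08, with 6 intervals below 1 and 1 above. Over all expressed genes 17.4% lay below and 16.6% above. The 6 below were Eif2b1, Eif2b2, Eif2b3, Eif2b4, Gcn1l1 and Eif2ak4. Eif2s1, eIF2 alpha itself, was at 0.985-fold (0.946 to 1.03), and Gcn1l1, the activator of the amino acid sensor kinase GCN2, at 0.899-fold (0.861 to 0.939). Of 12 regulators of C/EBP proteins 11 were expressed, with a median of 0.01 and 2 intervals above 1. The 2 most abundant were Calr at 1.03-fold (1.0 to 1.07) and the RNA-binding protein gene Celf1 at 0.977-fold (0.937 to 1.02). Trib1 and Cop1, which together mark C/EBP alpha for degradation, were at 0.984-fold (0.879 to 1.10) and 0.96-fold (0.886 to 1.04), named outside the rule for their role.

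The IL-6 family and STAT3 axis, which induces Cebpb and Cebpd, had 10 of 11 genes expressed and a median of 0.08, with 4 intervals above 1 and 2 below. Il6 had no read in either library. Another ligand gene of the family, Lif, was the highest of the list at 1.48-fold (1.20 to 1.82). The receptor gene Il6ra was the lowest at 0.814-fold (0.737 to 0.899). The receptor subunit Il6st was at 0.955-fold (0.912 to 0.999) and the kinase Jak1 at 1.04-fold (0.992 to 1.08). Of the 10 NOC family and CCAAT-box factors, relatives of Cebpz by function or binding site, 0 were called, with a median of -0.05 and 4 intervals below 1 against 1 above. Noc2l, a nucleolar partner in ribosome assembly, was at 0.928-fold (0.894 to 0.963), below 1 as Cebpz was, and Ybx1 was at 0.994-fold (0.974 to 1.01).

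The 7 listed genes past the 2-fold rule were all in the lists of inflammatory and keratinocyte differentiation targets. These 2 lists join genes known as C/EBP targets with other inputs too, and several of their members were already known to be higher in these libraries when the lists were drawn up, so their counts are no independent evidence. Of 22 inflammatory targets 11 were expressed, 5 were called higher and 0 lower, against 0.811% of expressed genes called higher. The median log2 ratio was 0.97, with 8 intervals above 1 and 1 below. The interval below 1 was that of Ptges, with 1090 reads in K5.Pp6fl/fl and 1405 in Pp6fl/fl, a fold of 0.864 (0.797 to 0.935). Cd14 was also lower, at 0.731-fold, with an interval that included 1. The acute-phase genes Saa1, Saa2, Saa3 and Hp had no read in either library.

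The cytokine gene Tnf had 164 reads in K5.Pp6fl/fl and 62 in Pp6fl/fl, which is 9.43 and 3.20 CPM and a 2.94-fold ratio (2.19 to 4.01). The monocyte chemokine Ccl2 had 37 reads in K5.Pp6fl/fl and 11 in Pp6fl/fl, a fold of 3.74 (1.87 to 8.14), with a wide interval. The calprotectin subunit S100a9 had 281 reads in K5.Pp6fl/fl and 129 in Pp6fl/fl, a fold of 2.42 (1.96 to 3.01). The neutrophil chemokine Cxcl1 was higher at far better depth, with 1633 reads in K5.Pp6fl/fl and 808 in Pp6fl/fl, a fold of 2.25 (2.07 to 2.45). The most abundant target, the prostaglandin synthase Ptgs2, had 7040 reads in K5.Pp6fl/fl and 4643 in Pp6fl/fl, a fold of 1.69 (1.63 to 1.75), short of the rule. S100a8, the partner of S100a9 and the fifth called gene, stood at 2.35-fold (1.82 to 3.04). With 2 CPM added in place of 0.5, the log2 ratios of Ccl2 and S100a8 were 0.68 and 0.96 and neither was called. The 7 melanocyte markers, from a cell type that tail skin cultures can hold, summed to 21.7 CPM in K5.Pp6fl/fl and 14.7 CPM in Pp6fl/fl. Their 5 expressed members had a median log2 ratio of 0.87, with 3 intervals above 1, those of Pmel (2.23-fold), Dct (2.12-fold) and Tyrp1 (1.99-fold), while Mitf was at 0.900-fold with an interval that included 1. The part of such cells in the inflammatory values was not tested. For myeloid cells, the markers stand at 1 read per library as given above.

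In the list of keratinocyte differentiation genes tied to C/EBP factors, most expressed genes had intervals above 1. Of 11 expressed members 2 were called higher and 0 lower, with 7 intervals above 1, 2 below, and a median of 0.37. Besides the called genes, those above 1 were Flg (1.68-fold), Tgm3 (1.41), Tgm1 (1.40), Ivl (1.30) and Cdkn1a (1.14). Arg1, arginase 1, had 41 reads in K5.Pp6fl/fl and 7 in Pp6fl/fl, or 2.36 and 0.362 CPM, a fold of 6.52 (2.90 to 17.2). Its log2 ratio was 1.73 as reported and 0.88, no longer called, when 2 CPM were added in place of 0.5. Loricrin, Lor, of the cornified envelope, had 186 reads in K5.Pp6fl/fl and 88 in Pp6fl/fl, a fold of 2.35 (1.82 to 3.07), and with 2 CPM added its log2 ratio was 0.96, not called. Krt10, a keratin of the spinous layer, went the other way, with 280 reads in K5.Pp6fl/fl and 405 in Pp6fl/fl, a fold of 0.770 (0.658 to 0.898). Trp63, a regulator of basal keratinocyte identity, is also among the 6 basal markers. It had 773 CPM in K5.Pp6fl/fl and 996 in Pp6fl/fl, a fold of 0.776 (0.759 to 0.793). The cell-cycle checkpoint gene Sfn was at 1.0-fold (0.994 to 1.01). The 6 basal markers summed to 53398 CPM in K5.Pp6fl/fl and 56986 CPM in Pp6fl/fl, and the 6 suprabasal markers, of which Krt1, Krt10, Ivl and Lor are also in this list, to 1074 and 826 CPM. Most of the suprabasal sum was Sbsn, at 907 CPM in K5.Pp6fl/fl and 680 CPM in Pp6fl/fl, and of the 6 intervals 4 lay above 1 and that of Krt10 below. The part of the cell mixture in these values was not tested.

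**Figure D5:**
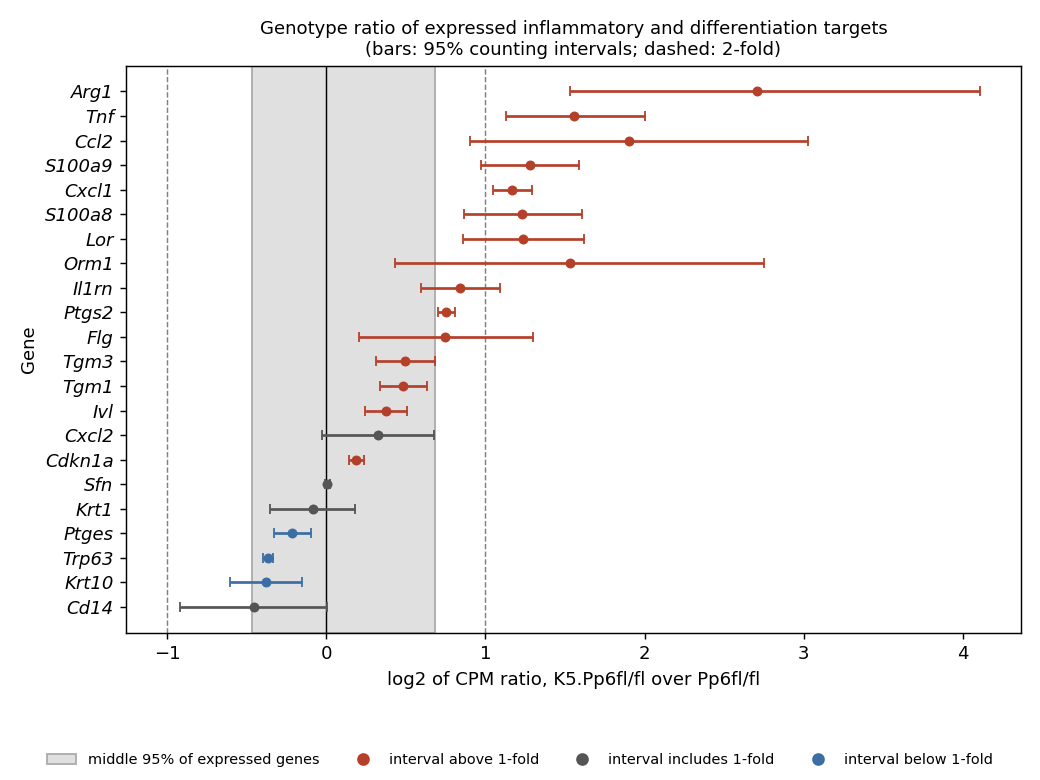
Genotype ratio of the 22 expressed genes in the inflammatory and keratinocyte differentiation target lists. The horizontal axis is the log2 of the CPM ratio, K5.Pp6fl/fl over Pp6fl/fl, with 95% counting intervals, dashed lines at 2-fold and a grey band for the middle 95% of expressed genes. Arg1 and Ccl2 have wide intervals, and Ptgs2 and Cxcl1 narrow ones. Krt10, Trp63 and Ptges lie below 0 with their whole intervals, and Cd14 and Krt1 lie below 0 with intervals that include 0.

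The C/EBP motif, TTGCNNAA or TTNNGCAA, was present in 8 of the 15 inflammatory targets and in 4 of the 9 differentiation genes with a RefSeq promoter, against 12.2% of all genes with one. It is shown for Ptgs2 and S100a9, higher in K5.Pp6fl/fl, and for Krt10, lower there (60 bases each, GRCm38.p6, 5′ to 3′ on the strand of the gene, motif in capitals).
Ptgs2, chr1:150099936-150099995, plus strand: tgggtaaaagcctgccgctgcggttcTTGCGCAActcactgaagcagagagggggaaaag
S100a9, chr3:90695912-90695971, minus strand: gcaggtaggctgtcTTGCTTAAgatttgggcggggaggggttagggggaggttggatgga
Krt10, chr11:99389450-99389509, minus strand: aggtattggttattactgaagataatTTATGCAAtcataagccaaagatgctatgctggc
In Ptgs2 the match, 69 bases before the start, reads the same on both strands. Among the 4 differentiation genes with the motif, Flg (1.68-fold), Tgm3 (1.41-fold) and Tgm1 (1.40-fold) had intervals above 1, and only Krt10 lay below. Of the inflammatory targets that held the motif, only Ptgs2 and S100a9 were expressed, both with intervals above 1. Il6, Saa1, Saa2 and Saa3 had no read, and C3 and Lcn2 were below 1 CPM. No match was found for the called genes Tnf, Ccl2, Cxcl1 and S100a8, for which a RefSeq promoter may be missing. Both lists join genes known as C/EBP targets, so the shares above are no independent evidence.

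The metabolic genes that C/EBP alpha drives in fat and liver were largely silent. Of 13 listed, 5 were expressed and 5 had no read in either library, Adipoq, Pck1, G6pc, Cfd and Lep. The lipid enzymes Scd1 and Acaca were the most abundant, at 1.10-fold (1.05 to 1.15) and 1.01-fold (0.948 to 1.07), and 0 of the 5 were called.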

How the data were processed

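Per the labels' protocols, polyadenylated RNA was selected with oligo(dT) and made into 1 library per genotype with a TruSeq RNA kit, a type that does not mark strand. Per the submitters' processing notes, RSEM, edgeR and build mm8 were used in some role. For the aligner and annotation, no source used here has a name. The authors' deposited estimated counts turned out to carry a constant factor in each library, found from the values: 97.4% (K5.Pp6fl/fl) and 97.3% (Pp6fl/fl) of values under 100 reads were whole within 0.01 reads once divided by it. The design had assumed unscaled counts. Columns were divided by this constant and rounded to whole reads. The deposited FPKM, log2 fold changes, p-values and FDR are the authors' own.

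Symbols were matched by Ensembl ID (47219 of 47719). CPM used TMM-scaled library sizes (edgeR 4.0.16, R 4.3.3; DESeq2 1.42.0 for alternative size factors). Folds carry exact conditional binomial (Clopper-Pearson) intervals at 95% and reads exact Poisson intervals. They describe counting error alone. PCR copies of a molecule cannot be told apart here, so reads may not be independent and the intervals may be too narrow. At 0 reads the limit is 3 reads. Promoters are from RefSeq; overlaps and transcript lengths are from GENCODE M21 (GRCm38), not the authors' build.

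Members and lists were chosen with earlier results of these data known. The genes named are the 9 members, Ppp6c and Arg1; in each list up to 4 called genes and the 2 most abundant; in marker lists the 3 most abundant. Others were named after their values were seen.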

Additional observations from a re-analysis of the deposited data

How the results depend on the processing

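The count of members past the rule was 0 under each of 8 alternatives: pseudocounts of 0.1 and 2 CPM, DESeq2 size factors, total reads, a floor of 5 CPM, no floor, FPKM and a 1.5-fold rule (4.73% of expressed genes). The median log2 ratio over the 7 expressed members was -0.07 as reported, and no log2 ratio of an expressed member moved beyond its counting interval. Around the family 7 genes were called, 3 with a pseudocount of 2 CPM, where Arg1, Lor, S100a8 and Ccl2 were lost, since adding 2 CPM pulls low values towards 0, and 15 with the 1.5-fold rule. Over all genes, 124 calls became 230 and 38 with pseudocounts of 0.1 and 2 CPM, 53 at a floor of 5 CPM (Arg1 and Ccl2 fall below it), 372 by FPKM and 583 by the 1.5-fold rule. The median of the inflammatory list ran from 0.39 without a floor to 1.17 with a pseudocount of 0.1 CPM, and that of the differentiation list was 0.37, and 0.19 at the floor of 5 CPM, where fewer genes enter. The Atf4 share of the family sum in K5.Pp6fl/fl was 63.2% by FPKM and 65.9% by reads per kilobase of the longest transcript. The sums with opposite-strand genes and the background at 20 CPM were added after the data were seen. No paired analysis was possible because there is 1 library per genotype, and no replicate could be left out. At this depth genes of few reads, such as Arg1, Ccl2, Fgf21 and Gdf15, have wide intervals, and Batf, Batf3 and Irf8 give no usable fold.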
